A study of Homo sapiens with 4 samples.

Results

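The MiT/TFE family comprises 4 related human genes, TFE3, TFEB, MITF and TFEC, and these 4 genes were followed here among the 34080 genes to which the deposited transcripts could be assigned. The members were chosen by name, and the values of all transcripts annotated to each gene were summed. Together they are annotated with 43 of the 180253 transcript identifiers in the files. RNA was taken from HK-2, an immortalised human renal proximal tubule line, which had been engineered with the Tet-On 3G system to express HA-PRCC-TFE3 when doxycycline is present. HA-PRCC-TFE3 is an HA-tagged fusion of part of PRCC with part of TFE3, of the kind found in TFE3-rearranged renal cell carcinoma. Both groups carried the transgene, and were kept for 24 h either with 0.2 microg/ml doxycycline, called Doxy(+), or with none, called Doxy(-). Each group held 2 polyA RNA libraries, and whether the line was a single clone is not given in the sources used here. Cells without the transgene were not analysed here, so an effect of doxycycline and an effect of the fusion cannot be told apart.

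MiT/TFE proteins bind DNA through a basic helix-loop-helix leucine zipper, as homodimers or as heterodimers with each other, at E-box sequences in the promoters of lysosomal and autophagy genes. When nutrients are plentiful, Rag GTPases bring TFE3, TFEB and MITF to the lysosome, where mTORC1 phosphorylates them, and 14-3-3 proteins then hold them in the cytoplasm. MITF is best known as the master regulator of melanocytes, TFEC is found mainly in macrophages, and TFE3 and TFEB are expressed widely. Rearranged TFE3 and TFEB are drivers of a group of kidney cancers.

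The libraries held between 14042545 and 16618401 estimated counts, of which 12654233 to 15012743 could be placed on genes. PAX8, a transcription factor of the renal epithelium, stood between 565 and 605 CPM (counts scaled to a library of 1000000). The proximal tubule genes LRP2, HNF4A and AQP1 had no more than 1 count in any library. Other markers of the list were expressed, with GGT1 at 68.7 to 86.0 CPM, CDH6 at 72.5 to 146 CPM and MME at 4.73 to 12.6 CPM. CUBN (0.408 to 0.854 CPM) and SLC34A1 (0.233 to 1.32 CPM) were low. Of 15 proximal tubule and epithelial markers, 9 could be tested, and edgeR called 2 higher and 4 lower in Doxy(+) (adjusted p under 0.05), where it called 9.76% of all tested genes higher and 9.53% lower. DESeq2 called 1 of these markers higher and 4 lower, where it called 776 of all tested genes higher and 779 lower. KRT19, KRT8 and CDH6 were among the 4 that fell, with log2 fold changes of -0.41, -0.24 and -0.94. MME and GGT1 rose, by 1.31 and 0.25. The leukocyte genes AIF1 and TYROBP were at 0 counts throughout, and the summed level of 8 leukocyte markers ranged from 5.42 to 5.47 CPM in Doxy(-) and from 4.49 to 7.36 CPM in Doxy(+).

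The transcripts of TFE3 that the result turns on differ at the acceptor site of an exon, besides their ends. TFE3 (ENSG00000068323.17, chrX:49028726-49043410, minus strand, hg38) has, as the third exon of the coding transcript TFE3-201, one that opens with the bases shown here. They are shown because their first 65 bases, in capitals, are coding in TFE3-201 and are absent from the same exon of TFE3-203 and TFE3-204. The stretch lies at chrX:49039311-49039410 and is read 5′ to 3′ on the minus strand, beginning with the first base of the exon.
TFE3-201 exon 3: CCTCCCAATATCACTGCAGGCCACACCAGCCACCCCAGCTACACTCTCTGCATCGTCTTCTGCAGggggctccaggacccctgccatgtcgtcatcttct
The shorter exon runs over chrX:49039107-49039345. Its loss of 65 bases leaves a remainder of 2 when divided by 3, and the annotation lists TFE3-204 as a target of nonsense-mediated decay, the pathway that degrades mRNA with an early stop codon. TFE3-203 is annotated with no coding region and without its 3′ end. It begins with an exon of its own at chrX:49039735-49039803, inside the second intron of TFE3-201.
TFE3-203 exon 1: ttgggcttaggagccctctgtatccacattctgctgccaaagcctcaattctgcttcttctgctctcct
Most of the sequence of TFE3-203 and TFE3-204 also occurs in TFE3-201. Of the 3217 stretches of 75 bases in TFE3-201, the read length of the study, 3080 also occur in TFE3-204 and 915 in TFE3-203, and 137 occur in no other transcript. TFE3-203 has 984 such stretches, 69 of them its own, and TFE3-204 has 3205, of which 125 are its own. Only annotated transcripts were compared, so identifiers in the files that matched no gene do not enter these counts of stretches.

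**Figure D1:**
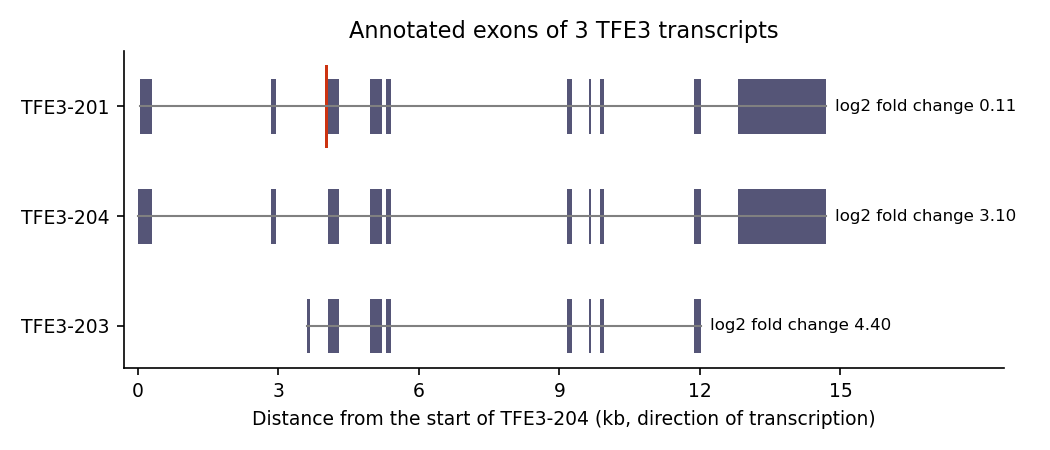
Annotated exons (blocks) of TFE3-201, TFE3-204 and TFE3-203, drawn to scale by distance in kb from the start of TFE3-204 in the direction of transcription, with the log2 fold change of each transcript at its right end. The red mark is the stretch of 65 bases found in the third exon of TFE3-201 and missing from TFE3-204 and TFE3-203, whose log2 fold changes were 3.10 and 4.40 against 0.11 for TFE3-201.

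The paralogs themselves are far enough apart in sequence to be counted separately. Across all pairs of the 4 genes, no stretch of 75 bases was shared by any of their annotated transcripts. The longest identical run was 25 bases, between TFE3 and TFEB, and the other pairs had runs of 13 to 17 bases. Within TFEB, 46 stretches of the transcript TFEB-212 occur in other genes. TFEB also overlaps a lncRNA gene on the opposite strand, ENSG00000231102, for which no count was analysed here.

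To compare the 4 genes with each other, levels were taken in TPM, a level corrected for transcript length that sums to 1000000 in a library, and summed per gene. TFE3 stood at 34.9 and 36.5 TPM in the Doxy(-) libraries and at 276 and 249 TPM in the Doxy(+) libraries. MITF had 26.1 and 22.4 TPM in Doxy(-) and 16.5 and 18.8 TPM in Doxy(+). TFEB had 1.64 and 3.63 TPM in Doxy(-) and 2.33 and 3.19 TPM in Doxy(+). The order was the same in every library, TFE3 above MITF, MITF above TFEB and TFEB above TFEC, and no neighbours in this order overlapped within a group. TFEC, at 0.0427 and 0.10 TPM in Doxy(-) and 0.255 and 0.0956 TPM in Doxy(+), rested on 1 to 4 counts a library. No test was made of these differences in level between genes.

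The summed TPM of the family came to 62.7 and 62.6 without doxycycline, and to 295 and 271 with it. Values of TFE3 can include reads of the transgene that carry TFE3 sequence, so these sums and shares are not of endogenous genes alone. In Doxy(+), the transcript TFE3-203 held 148 and 142 TPM. TFE3 supplied 57.0% ± 1.91 (SD, n = 2) of the family's summed TPM without doxycycline and 92.7% ± 1.17 with it. These shares were 72.9% and 94.1% with CPM in place of TPM, a dependence on the scale that the SD does not cover. The share of MITF moved from 38.7% ± 4.22 to 6.27% ± 0.932 (24.3% and 5.02% with CPM in place of TPM). That of TFEB moved from 4.21% ± 2.25 to 0.984% ± 0.272 (2.61% and 0.780% with CPM), and that of TFEC from 0.114% ± 0.0651 to 0.0608% ± 0.0362. For MITF the smaller share went with a total that had grown, and the gene's own change is given with its counts below.

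The Doxy(+) and Doxy(-) libraries were then compared gene by gene, on counts summed per gene, to ask which members differ once the fusion is switched on. Of the 13569 genes tested, 2618 (19.3%) had an adjusted p under 0.05 in edgeR's quasi-likelihood test, which is the limit for a call here. TFE3, TFEB and MITF passed the low-count filter and TFEC did not. TFE3 was called, and TFEB and MITF were not. The median log2 fold change over all tested genes was 0.000616.

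TFE3, the gene whose sequence is part of the transgene, had 66.9 and 69.1 CPM in Doxy(-) and 367 and 322 CPM in Doxy(+). The groups did not overlap, and the spread within each was small beside the gap. The log2 fold change was 2.34 (SE 0.0720, 95% interval 2.16 to 2.52, adjusted p = 4.78e-05). Reads of the transgene that carry TFE3 sequence and reads of the endogenous gene cannot be told apart in these sums, nor, in bulk RNA, can more cells with the transcript and more of it per cell. PRCC, the fusion partner, stood at 50.2 and 47.2 CPM without doxycycline and at 47.7 and 60.1 CPM with it, and the groups overlapped. The log2 fold change was 0.15 (SE 0.112, 95% interval -0.12 to 0.42, adjusted p = 0.413).

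MITF (ENSG00000187098.18, chr3:69739456-69968336, plus strand) had 21.9 and 23.5 CPM in Doxy(-) and 14.7 and 21.5 CPM in Doxy(+). Both Doxy(+) libraries were below both Doxy(-) libraries, but library 2 of Doxy(+) lay close to them. The log2 fold change was -0.32 (SE 0.178, 95% interval -0.76 to 0.11, adjusted p = 0.264), so a decrease of that size was within the spread between libraries. The value depended on which Doxy(+) library entered it. Without Doxy(+) 2 it was -0.63 and was called (adjusted p = 0.0338), and without Doxy(+) 1 it was -0.077 (adjusted p = 0.749).

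TFEB (ENSG00000112561.19, chr6:41683978-41736259, minus strand), the member with the longest record as a regulator of lysosome biogenesis, had 2.48 and 2.38 CPM in Doxy(-) and 2.33 and 3.28 CPM in Doxy(+). The groups overlapped, with the Doxy(+) libraries holding the lowest and the highest value. The log2 fold change was 0.21 (SE 0.283, 95% interval -0.48 to 0.90, adjusted p = 0.663), and it was -0.061 (adjusted p = 0.944) without Doxy(+) 2. These values came from 30 to 44 counts a library, and the exact Poisson intervals of the 4 libraries, which cover counting error only, overlapped one another and together spanned 1.57 to 4.40 CPM.

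TFEC (ENSG00000105967.16, chr7:115935148-116159896, minus strand) had 1 and 2 counts in the Doxy(-) libraries and 4 and 2 counts in the Doxy(+) libraries. The limit that a count of 0 allows, 3 counts, corresponds to between 0.204 and 0.233 CPM, so at this depth the level of TFEC was at or near the floor in both groups. No test and no fold change are given for it. Its 9 annotated transcripts shared these counts, and none of them reached 3 counts in any library.

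**Figure D2:**
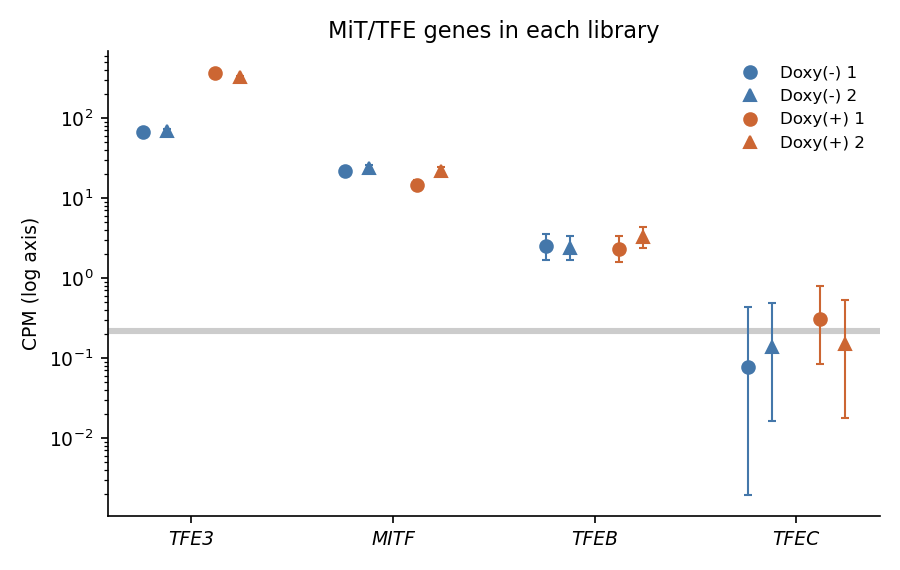
CPM (log axis) of the 4 MiT/TFE genes in each library, with blue for Doxy(-), orange for Doxy(+), circles for library 1 and triangles for library 2. Bars are 95% Poisson intervals for counting error only, and the grey band is the CPM of 3 counts (0.204 to 0.233). The TFE3 values of Doxy(+) (367 and 322) stand clear of Doxy(-) (66.9 and 69.1), while TFEB and TFEC overlap between groups.

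The increase in TFE3 was next resolved by transcript. Of 51663 transcripts tested, 9 (0.0174%) were called, 6 of them (0.0116%) higher in Doxy(+), and the 11 transcripts of the family that passed the filter included 1 of these, TFE3-203. The tested transcripts include unmatched identifiers, among them a copy with the same counts as TFE3-203, so that result enters these totals again. The coding transcript TFE3-201 had 464 and 604 estimated counts without doxycycline against 551 and 534 with it. Those groups overlapped, with a log2 fold change of 0.11 (SE 0.110, 95% interval -0.21 to 0.43, adjusted p = 0.920). TFE3-203, the transcript with no annotated coding region, had 54.3 and 69.8 estimated counts in Doxy(-), against 1237 and 1240 in Doxy(+). It rose by a log2 fold change of 4.40 (SE 0.108, 95% interval 4.09 to 4.71, adjusted p = 0.0413). That call was lost whichever of the 4 libraries was left out, with adjusted p between 0.362 and 0.570, although the log2 fold change stayed between 4.31 and 4.50. TFE3-204, annotated as a decay target, had 338 and 333 estimated counts in Doxy(-), against 2921 and 2531 in Doxy(+), with no overlap. An increase of 3.10 on the log2 scale (SE 0.143, 95% interval 2.69 to 3.51) did not pass the adjustment over all transcripts (adjusted p = 0.121).

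Fewer counts lay on the remaining transcripts of TFE3. TFE3-205, a retained intron, had 3.29 and 2.61 estimated counts in Doxy(-) and 17.9 and 14.8 in Doxy(+), a log2 fold change of 2.49 (adjusted p = 0.398). TFE3-202 had between 0.547 and 4.42 estimated counts, its higher values in Doxy(-), and was too low to test. Transcript estimates varied far more between libraries than gene sums did, with a common biological coefficient of variation of 62.9% against 6.53%.

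**Figure D3:**
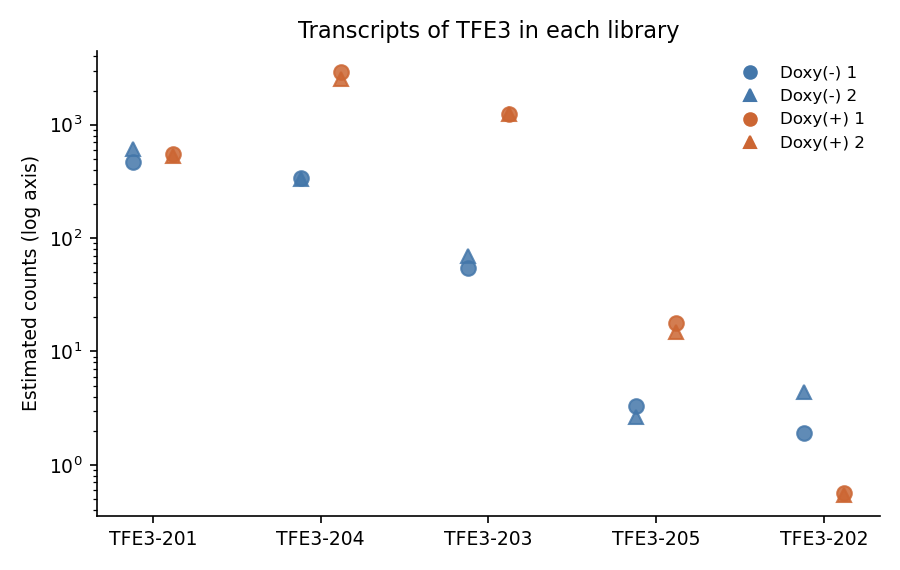
Estimated counts (log axis) of the 5 annotated TFE3 transcripts in each library, with colours for the group and shapes for the library number. The points of TFE3-201 overlap between groups, whereas those of TFE3-204 and TFE3-203 in Doxy(+) (2531 to 2921 and 1237 to 1240) lie above those in Doxy(-) (333 to 338 and 54.3 to 69.8).

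The transcripts of TFE3 therefore made up different parts of the gene in the 2 groups, and this was tested directly by setting each transcript against the rest of its gene. In this test, 149 of 41942 transcripts (0.355%) were called. TFE3-201 moved by -1.56 on the log2 scale relative to the rest of TFE3 (adjusted p = 0.000555), and TFE3-203 by 1.42 (adjusted p = 0.000583). TFE3-204 moved by 0.51 and was not called (adjusted p = 0.316). TFE3-201, with the longer form of the third exon, held 53.9% and 59.6% of TFE3 counts in Doxy(-), and 11.7% and 12.4% in Doxy(+). Those with the exon shortened by 65 bases, TFE3-203 and TFE3-204 together, held 45.5% and 39.7% in Doxy(-) and 87.95% and 87.3% in Doxy(+). By these estimates, TFE3-203 and TFE3-204 together were thus already near TFE3-201 in the Doxy(-) libraries. Reads across the exon junction itself were not counted. Reads of the transgene that carry TFE3 sequence cannot be told apart from reads of these transcripts. Leaving out a Doxy(+) library took the usage change of TFE3-201 out of the call, to an adjusted p of 0.0525 without Doxy(+) 1 and 0.0534 without Doxy(+) 2. That of TFE3-203 had adjusted p of 0.0525, 0.0591 and 0.0599 without Doxy(+) 1, Doxy(+) 2 and Doxy(-) 2, with relative changes of 1.47, 1.37 and 1.47.

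Since these transcripts have so few stretches of their own, the division of counts between them depends on the quantifier's model. The deposited length of TFE3-201 was 3415 bases against 3291 in the annotation used here, that of TFE3-204 was 3274 against 3279, and that of TFE3-203 was 1058 in both. An identifier that matched no gene had the same length and counts as TFE3-203. Its counts are part of the library totals in addition to those of TFE3-203. The gene sums, the shares of TFE3 counts and the usage test given here leave them out.

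MITF is transcribed from a series of promoters spread over its locus, each joining its own first exon to common downstream exons, and the most downstream of those grouped here includes the promoter that melanocytes use. The 15 annotated MITF transcripts in the files fell into 5 groups by start. The 3 transcripts that begin between 69739464 and 69739482 held 2.02% and 13.9% of MITF counts in Doxy(-) and 13.0% and 36.5% in Doxy(+). The 3 that begin between 69762724 and 69763811 held 39.6% and 13.7% in Doxy(-) and 37.6% and 21.6% in Doxy(+). The pair that begins between 69866224 and 69866259 held 22.8% and 47.7% in Doxy(-) and 23.9% and 21.3% in Doxy(+). MITF-206, which starts between the first of these groups and the next, held 0.667% in Doxy(-) 1 and 0 elsewhere. In each group of 2 or 3 transcripts, the share differed widely between the libraries of at least 1 treatment. The 6 transcripts of the most downstream group held 34.9% and 24.7% in Doxy(-) and 25.4% and 20.6% in Doxy(+).

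**Figure D4:**
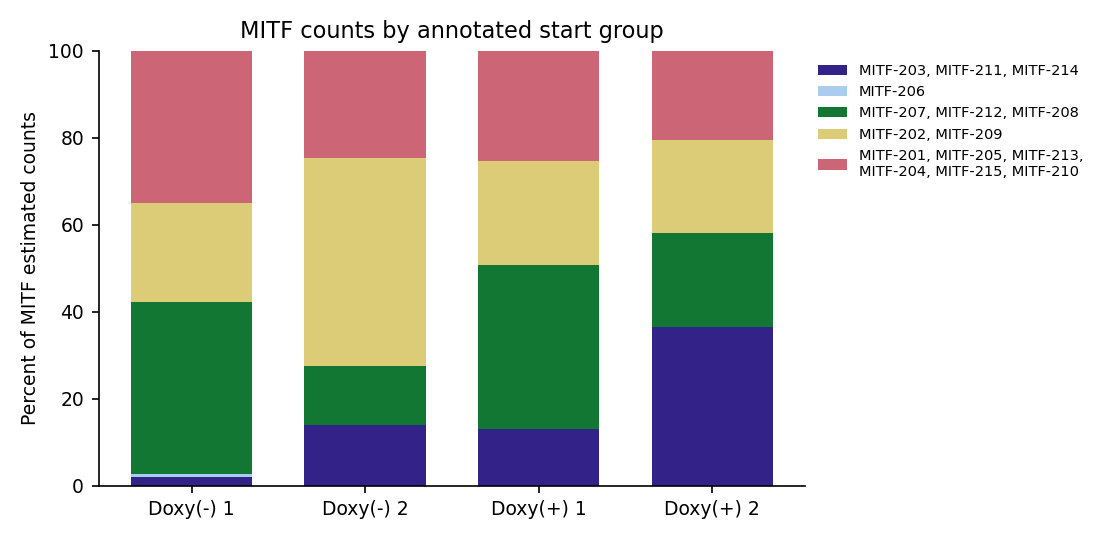
Percent of MITF estimated counts in each library by annotated start group, stacked, with the transcripts of each group named in order from the most upstream start to the most downstream. Libraries 1 and 2 of the same treatment differ widely, for example from 22.8% to 47.7% for MITF-202 and MITF-209 within Doxy(-).

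Of the 7 MITF transcripts with a mean of at least 5 counts, 6 passed the filter, and none of these was called by edgeR. An unadjusted p under 0.05 was found for 1 of the 6, and for 4889 of all 51663 transcripts tested. MITF-212 came nearest, with 78.2 and 45.3 estimated counts in Doxy(-) and 15.9 and 16.7 in Doxy(+), a log2 fold change of -1.84 (SE 0.511, adjusted p = 0.408). MITF-203, the reference transcript of the gene, had 0.190 and 36.0 estimated counts in Doxy(-) and 17.4 and 98.1 in Doxy(+). MITF-202 had 0 and 139.9 in Doxy(-) and 6.44 and 33.3 in Doxy(+). MITF-208 had 33.6 and 0 in Doxy(-) and 53.2 and 45.7 in Doxy(+). Such differences between libraries of the same group left wide intervals, from -8.59 to 5.22 on the log2 scale for MITF-202. MITF-209 (1.55 to 4.51 CPM) and MITF-215 (1.79 to 6.90 CPM) overlapped between groups. MITF-213 was listed above 0 only in Doxy(-) 2, with 55.1 counts.

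MITF-205 and MITF-201, full-length transcripts of the melanocyte start, were estimated at 0 in all 4 libraries, as was MITF-210. Of their stretches of 75 bases, 0 of 4401 in MITF-205 and 5 of 1724 in MITF-201 are their own. Their estimates of 0 therefore cannot show that they were absent. The deposited length of MITF-205 was 1956 bases, against 4475 in the annotation used here. Outside Doxy(-) 2, the counts of the most downstream group lay instead mostly or wholly on MITF-215, with 98.5 in Doxy(-) 1 and 48.2 and 57.2 in Doxy(+). In Doxy(-) 2, MITF-215 had 28.8 counts, and MITF-213 of the same group had 55.1. Of the 1000 stretches of 75 bases in MITF-215, 11 are its own. The bases before the start of MITF-205 are shown because they hold the cAMP response element TGACGTCA, in capitals, a motif that CREB binds. They come from RefSeq's promoter at chr3:69936342-69936591 on hg38, plus strand.
MITF melanocyte promoter: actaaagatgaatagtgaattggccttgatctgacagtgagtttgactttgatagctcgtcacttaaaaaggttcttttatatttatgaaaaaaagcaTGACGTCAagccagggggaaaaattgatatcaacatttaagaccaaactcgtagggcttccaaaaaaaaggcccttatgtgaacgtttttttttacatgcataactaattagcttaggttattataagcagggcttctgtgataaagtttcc
The motif begins 152 bases before the start. It occurred in 1.85% of all 35116 RefSeq promoters of 300 bases (250 before the start and 50 after), and in 1 of the 9 promoters of the family. The E-box CACGTG, which MiT/TFE proteins bind, occurred in 7.26% of all promoters, and CATGTG, searched on both strands, in 11.1%. Neither string was present in the 9 promoters of the family, 1 of TFE3, 3 of TFEB, 3 of MITF and 2 of TFEC.

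The melanocyte start of MITF is switched on by SOX10 and PAX3. SOX10 had 1 count in Doxy(-) 1 and 0 elsewhere, and PAX3 had 0 in every library. LEF1 had 1 to 7 counts. CREB1 (61.1 to 74.8 CPM) and ZEB2 (46.5 to 59.7 CPM) were expressed and were not called.

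A further division of MITF is at the exon that encodes the start of the DNA-binding region, which is made with or without 18 bases. The exon is shown with those bases in capitals, at chr3:69951812-69951886, plus strand.
MITF long exon: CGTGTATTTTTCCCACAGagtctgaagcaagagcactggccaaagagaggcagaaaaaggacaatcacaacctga
The short form, of 57 bases, begins at 69951830. Among the counts on transcripts that contain this exon, the short form made up 76.6% and 64.9% in Doxy(-) and 68.8% and 54.7% in Doxy(+). The groups overlapped. In contrast to the 65 bases of TFE3, the 18 bases keep the reading frame.

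TFEB had 14 of its 19 annotated transcripts in the files, and 5 of these were at 0 in all libraries. TFEB-207 was the sole transcript to pass the filter, with 2.46 and 17.1 estimated counts in Doxy(-) and 22.3 and 30.9 in Doxy(+). The estimate of 1.60 on the log2 scale (SE 1.08, adjusted p = 0.825) had an interval from -1.51 to 4.71. TFEB-204 was listed with 27.0 counts in Doxy(-) 1 and 0 elsewhere. TFEB-205 had 2.57 and 11.5 counts without doxycycline, against 4.47 and 6.34 with it. A difference in how TFEB divides into transcripts was not detectable at this depth.

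The genes on which the paralogs act, and those that act on them, were counted from lists chosen with earlier results of these data known. All 33 listed MiT/TFE targets of the lysosome and autophagy could be tested, and 30 rose while none fell by edgeR (0 at an unadjusted p under 0.05), against 9.76% of all tested genes called higher and 9.53% called lower. With DESeq2 27 rose and none fell, where DESeq2 called 776 of all tested genes higher and 779 lower. The median log2 fold change of the 33 targets was 0.80. GPNMB, a glycoprotein of lysosomes and melanosomes, had 49.0 and 43.5 CPM in Doxy(-) and 254 and 248 CPM in Doxy(+), a log2 fold change of 2.44 (SE 0.0607, adjusted p = 3.35e-05). CTSA, which protects lysosomal sialidase, and TPP1, a lysosomal peptidase, were also among those with the smallest p, with log2 fold changes of 1.04 and 1.32. TRIM63, a ubiquitin ligase best known from muscle, had 0 counts in both Doxy(-) libraries and 2.49 and 2.53 CPM in Doxy(+), at least 3.52 on the log2 scale above the level of 3 counts a library, and the list's median was the same with this bound in its place. GALNS, VPS11 and WIPI1, named here after their values were seen, were not called (0.29, -0.13 and -0.0094).

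The Rag and folliculin genes govern how MiT/TFE proteins reach the lysosome, where folliculin with FNIP1 or FNIP2 activates RagC and RagD. Of these 12 genes, 9 rose in edgeR (8 in DESeq2), where edgeR called 9.76% of all tested genes higher and 9.53% lower. None fell (0 at an unadjusted p under 0.05), and the median log2 fold change was 0.58. RRAGD, a Rag GTPase, had 20.7 and 21.0 CPM in Doxy(-) and 78.4 and 77.9 CPM in Doxy(+), a log2 fold change of 1.90 (SE 0.0565, adjusted p = 4.47e-05). FLCN (0.98), RRAGC (1.26) and FNIP2 (1.59) had the next smallest p. The mTORC1 list, the kinase that phosphorylates the family, had 2 of 8 genes called higher by edgeR (1 by DESeq2), against the same 9.76%. It had none lower by either (0 at an unadjusted p under 0.05) and a median of 0.0098. TSC2, a subunit of the TSC complex that restrains mTORC1, was not called by edgeR (-0.16, adjusted p = 0.210). TSC1 (0.39) and TBC1D7 (0.49), also subunits of that complex, were the 2 called. With length-scaled counts or limma on TPM, neither of these 2 was called. Without Doxy(+) 1 neither was called.

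The next list held genes that move the factors between nucleus and cytoplasm. In the list of calcineurin, 14-3-3, other kinases and the export receptor, none of 18 genes was called higher by edgeR or DESeq2 and 2 were called lower by each, against 9.53% of all tested genes called lower by edgeR. At an unadjusted p under 0.05 in edgeR, 2 were higher and 7 lower. The share of all tested genes under that unadjusted limit was not counted, so these numbers have no background here. The list had a median log2 fold change of -0.051. The 2 called were the 14-3-3 proteins YWHAH (-0.27, adjusted p = 0.00402) and YWHAZ (-0.21, adjusted p = 0.0122).

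Of 18 targets known for MITF and TFEC in other cell types, 9 could be tested. Over all tested genes, edgeR called 9.76% higher and 9.53% lower. Of 12 pigment cell targets of MITF, 5 could be tested and none was called by edgeR or DESeq2, with 1 at an unadjusted p under 0.05 in edgeR. The share of all tested genes under that unadjusted limit was not counted. TYR, TYRP1 and DCT, the enzymes of melanin synthesis, had 0 to 5 counts in each library. PMEL, a structural protein of melanosomes, had 3.72 and 2.86 CPM in Doxy(-) and 6.29 and 4.92 CPM in Doxy(+), which did not overlap, with a log2 fold change of 0.77 (SE 0.244, adjusted p = 0.0796). GPR143 (0.73, adjusted p = 0.171) and MC1R (0.43, adjusted p = 0.301) were the next by p, and RAB27A was at 0.0077. Of 6 osteoclast targets, 4 could be tested and 2 rose in edgeR and in DESeq2. With limma on log2(TPM + 1) without a filter, none of this list was called. ATP6V0D2, a V-ATPase subunit, rose from 3.03 and 2.72 CPM to 16.9 and 15.04 CPM, a log2 fold change of 2.47 (SE 0.153, adjusted p = 0.000346). OSTM1, a partner of the chloride transporter CLCN7, rose by 0.72 (adjusted p = 0.00383). CTSK (-0.31, adjusted p = 0.418) and ACP5 (1.62, adjusted p = 0.469) were not called, and ACP5 ranged from 0 to 1.01 CPM in Doxy(-) and from 0.223 to 2.796 CPM in Doxy(+).

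**Figure D5:**
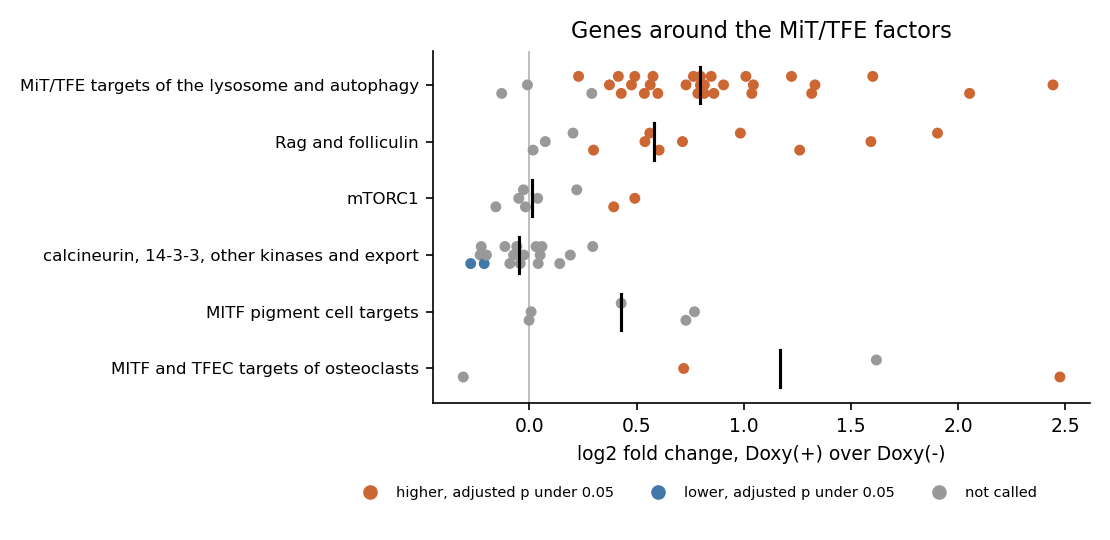
Log2 fold change, Doxy(+) over Doxy(-), of the tested genes of 6 lists, with 1 point for each gene (orange higher and blue lower at an adjusted p under 0.05, grey not called) and a black line at the median. TRIM63, at 0 in Doxy(-), is not drawn. The lysosome and Rag lists lie to the right (medians 0.80 and 0.58) and the mTORC1 and transport lists lie around 0 (medians 0.0098 and -0.051).

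Finally, the genes whose profile over the 4 libraries was most like that of each tested member were taken from the 9607 genes that averaged 10 CPM or more, by the distance between centred log2 CPM values. For TFE3 these were CLCN5, an endosomal chloride transporter (distance 0.203), GPNMB (0.215) and CENPT, a kinetochore protein (0.232). CLCN5 had 5.51 and 6.80 CPM in Doxy(-) and 31.0 and 28.9 CPM in Doxy(+). For TFEB they were ANKRD28 (0.0502), SHQ1 (0.0862) and GPSM1 (0.0866), all highest in Doxy(+) 2 as TFEB was. For MITF they included ENSG00000254692 (0.0918) and TCF3 (0.106), both lowest in Doxy(+) 1. With 4 libraries, a profile is mainly the group difference and the difference between replicates, and the likeness is given as a description.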

How the data were processed

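Polyadenylated RNA of 4 HK-2 libraries was prepared with a TruSeq Stranded mRNA kit. The submitters' processing notes name Trim Galore 0.6.6, cutadapt 2.5, STAR 2.7.9a and hg38. The study's methods name RSEM for TPM and a gene annotation from UCSC for hg38, whereas the tables deposited by the authors list Ensembl transcripts with the columns of kallisto. Which tool made them, and with which transcript release and strand setting, is not given in the sources used here. The deposited estimated counts are expected reads per transcript, not normalized. The deposited TPM values sum to 1000000 in each library.

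Through GENCODE release 44, 150691 of 180253 identifiers (83.6%) were assigned to 34080 genes, and the unmatched ones held 9.66% to 9.89% of counts. Members and lists were chosen with earlier results of these data known. Counts were summed per gene, rounded and analysed in R 4.3.3 with edgeR 4.0.16 (glmQLFit and glmQLFTest, TMM, filterByExpr, group as the only term, Benjamini-Hochberg adjustment over all features tested). The same fit was made on transcripts, unmatched identifiers included, and the share of each transcript was tested with diffSpliceDGE. Standard errors follow from the F statistic and intervals are 95%. The fits were tested on simulated data, in which counts were drawn separately for each transcript, so shared reads were not covered. The usage step was tried only with larger changes than those reported for TFE3. Library totals set the precision. The p-values rest on the spread between 2 libraries a group, which may be technical, and edgeR pools information on that spread across features.

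The text names the 4 members and PRCC, member transcripts with a mean of at least 5 counts, up to 4 genes a list with the smallest p, and the 3 genes most like each tested member. Markers used to check the cells, and members too low to test, are named beside these. Some genes that these rules select are not reported here. Sequences came from GENCODE release 44 transcripts and RefSeq promoters on hg38. The alternatives tried were DESeq2 1.42.0, limma 3.58.1 on log2(TPM + 1) or log2(TPM + 0.1) with a mean TPM of at least 0.5 or no filter, length-scaled counts, RLE size factors, all genes unfiltered, added copies, a replicate block, and leaving out each library.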

Additional observations from a re-analysis of the deposited data

Results flagged for a closer look

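Some identifiers in the files that matched no gene, and so entered no comparison between genes, held the length and the 4 counts of a TFE3 transcript. That with the values of TFE3-203 averaged 1239 estimated counts in Doxy(+) and 62.1 in Doxy(-), and that with the values of TFE3-205 averaged 16.4 in Doxy(+) and 2.95 in Doxy(-). Both were picked out because their level in Doxy(+) was above that in the Doxy(-) controls outside the gene sums. Adding them to TFE3 gave a log2 fold change of 2.60 (adjusted p = 2.24e-05) in place of 2.34.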

How the results depend on the processing

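TFE3 was called higher under all 13 gene-level alternatives (log2 fold change 2.24 to 2.87). TFEB was never called (-0.061 to 0.43) and was -0.061 without Doxy(+) replicate 2 and up to 0.43 without another library. MITF was called without Doxy(+) 2 only (-0.63), and lay between -0.63 and -0.077 when a library was left out. The number of genes called higher and lower, 1325 and 1293, was 776 and 779 with DESeq2, 562 and 286 with limma on log2(TPM + 1), 551 and 272 on log2(TPM + 0.1), 133 and 72 without the TPM filter, and 670 and 576 with length-scaled counts. Leaving out a library gave 647 to 1233 higher and 565 to 1308 lower. Of transcripts, edgeR called 6 higher and 3 lower, but 0 (TFE3 included) under the replicate block, with 3146 at an unadjusted p under 0.05, and 0 (TFE3 included) whichever library was left out, with 4617 to 5277. TFE3-203 had a log2 fold change of 4.41 (adjusted p = 0.812) under the block and 4.31 to 4.50 (adjusted p 0.362 to 0.570) with a library left out. Relative usage was then -1.61 to -1.51 for TFE3-201 and 1.37 to 1.47 for TFE3-203. Lysosome and autophagy targets called higher ranged from 14 to 30 over the same alternatives, and Rag and folliculin genes from 3 to 9, both lowest with limma on log2(TPM + 1) without a filter, and none of either list was called lower. The cause of these differences was not tested. TFE3's share of the family was 72.9% and 94.1%, MITF's 24.3% and 5.02%, and TFEB's 2.61% and 0.780%, in Doxy(-) and Doxy(+) with counts in place of TPM, and TFE3's was 61.4% and 95.2% with copies added. Same-numbered libraries did not deviate together (correlation -0.0147), so their numbers were not taken as pairs, and the replicate block changed no gene call among TFE3 (2.34), TFEB (0.19) and MITF (-0.34). Usage and single TFE3 transcript alternatives were chosen after seeing the data. The alternatives planned for a fold change of TFEC were not run, since it had at most 4 counts in a library and did not pass the filter, and only its share of the family was recomputed. Depth limits TFEC and the transcripts of TFEB and MITF.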
